A study of Mus musculus with 8 samples.

Results

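The glutathione, glucuronide and sulfate transferases were taken as every protein-coding gene of the deposited count table whose symbol starts with Gst, Ugt or Sult. This gave 63 of 31894 genes with an identifier: 23 Gst, 20 Ugt and 20 Sult genes. Of these, 22 had enough counts to be tested: 17 Gst genes, 1 Ugt gene and 4 Sult genes. A pseudogene with a matching symbol, Sult2a-ps3, was not a member. Each gene was compared within each mouse, E-cad LO against E-cad HI, and by family.

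The libraries came from cells sorted by E-cadherin reporter fluorescence from breast cancer brain metastases in mice 57, 58, 67 and 70. Each mouse gave 1 E-cad HI and 1 E-cad LO library. The labels gave both groups the strain FVB, the genotype wild type and the disease state breast cancer, with no treatment and no age; the sorted cells grew from PyMT tumor organoids with the E-cad-mCFP reporter, and whether the genotype label is that of the host mouse is not stated. Values of 4 libraries or 4 mice are listed below in the order 57, 58, 67 and 70.

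Library totals were 14922074, 13006189, 13437544 and 11876177 counts in E-cad HI against 11325146, 9102781, 14313787 and 15769200 counts in E-cad LO. Levels are normalized CPM (counts scaled by library total and the TMM factor of edgeR), and 3 counts, the floor used here, were 0.201 to 0.348 CPM. Log2 ratios are E-cad LO over E-cad HI, so values below 0 mark lower levels in E-cad LO.

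Glutathione S-transferases join glutathione to reactive compounds or reduce peroxides with it, and their classes (alpha, mu, theta, pi, omega, zeta, kappa) differ in substrate. UDP-glucuronosyltransferases attach glucuronic acid, and a few relatives attach other sugars. Cytosolic sulfotransferases move sulfate from the donor PAPS onto phenols, steroids and amines.

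The E-cad LO library of mouse 57 and both libraries of mouse 70 stood apart in marker levels. They also held outlying values of several transferase genes described below. The former had 1187 CPM of summed mural cell and fibroblast markers, against 17.1 to 178 CPM in the other E-cad LO libraries. Its Epcam level was 289 CPM, against 790 to 1098 CPM in the other E-cad LO libraries, and its summed tumor epithelium markers were the lowest of the 8 libraries (5103 CPM). Mouse 70 had the highest oligodendrocyte marker sums of both groups, 8593 CPM in E-cad HI against 34480 CPM in E-cad LO. The part of these cells in the results for the transferases was not tested, and for several genes values are also given without 1 of these mice.

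By edgeR, 0 members were higher and 0 were lower in E-cad LO at an adjusted p under 0.05 (Benjamini-Hochberg over the genes tested). At an unadjusted p under 0.05, edgeR gave 4 members lower (Gstt1, Gstt2, Gstt3 and Gsta3; 18.2% of 22) and 0 higher. Over all 13598 genes tested, edgeR gave 0 higher and 0 lower (0% each) after adjustment, and 1109 higher (8.16%) and 790 lower (5.81%) before it. The smallest edgeR adjusted p was 0.253 among members (Gstt3) and 0.114 among all genes.

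With each mouse taken as a replicate block, so that its 2 libraries are compared with each other, edgeR again gave 0 members in either direction after adjustment. Before adjustment it gave 6 lower, the same 4 with Gsta4 and Gstm2, and 1 higher, Gstm1. All genes gave 99 higher (0.728%) and 0 lower (0%) after adjustment in this blocked fit, and 1671 higher (12.3%) and 997 lower (7.33%) before it. DESeq2 without the block gave 1 member lower, Gstt3, and 0 higher, beside 292 of 13158 genes higher (2.22%) and 56 lower (0.426%). DESeq2 with the block gave 2 lower, Gstt1 and Gstt3, and 1 higher, Gstm1, beside 1029 of 13598 genes higher (7.57%) and 222 lower (1.63%).

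By direction within mice, 6 tested members were lower in E-cad LO in 4 of 4 mice: Gstt1, Gstt2, Gstt3, Gsta3, Gsta4 and Gstm2. Of all genes tested, 1928 (14.2%) were. Gstcd was the 1 tested member above 0 in 4 of 4 mice, with a ratio of 0.00 after rounding in mouse 70, beside 2286 genes (16.8%). The groups did not overlap for 4 tested members, all lower in E-cad LO (Gstt1, Gstt3, Gsta3 and Gsta4; 18.2% of 22), and for 0 tested members in the other direction. Of all genes tested, 571 (4.20%) were lower and 530 (3.90%) higher without overlap. Among untested members, Gstp3 was higher in E-cad LO in 4 of 4 mice without overlap, with 0 to 2 counts per E-cad HI library and 3 to 11 per E-cad LO library, and Gstt4 was higher in 4 of 4 mice with overlap.

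**Figure D1:**
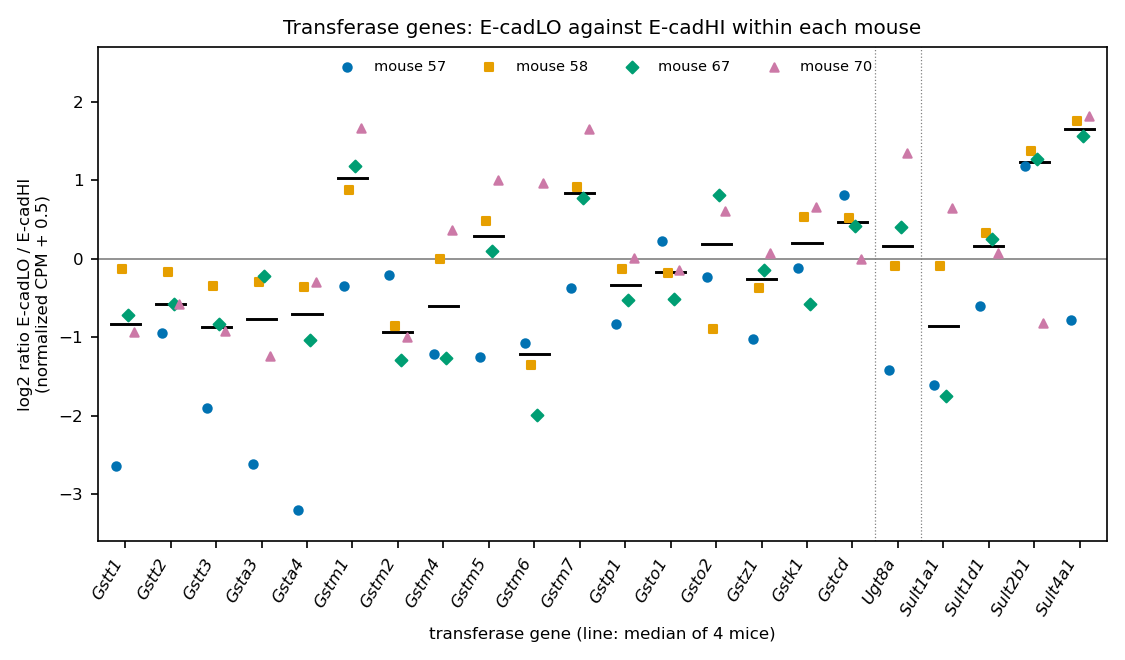
Log2 ratio of E-cad LO over E-cad HI (vertical axis, normalized CPM plus 0.5) for the 22 tested genes, with 1 point per mouse and a line at the median of 4 mice. Dotted lines separate Gst, Ugt and Sult genes. Gstt1 lies below 0 in 4 of 4 mice (−2.65, −0.13, −0.72 and −0.94), while Sult4a1 lies below 0 in mouse 57 (−0.78) and above 0 in the others (1.76, 1.56 and 1.82).

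The median within-mouse log2 ratio over the 17 tested Gst genes was −0.94, −0.17, −0.53 and 0.01, against 0.02, 0.00, 0.02 and 0.07 for all genes. Mouse 57 lay lowest and mouse 70 did not lie below 0. Summed Gst levels were 1590, 1144, 1419 and 1800 CPM in E-cad HI against 527, 1078, 992 and 2030 CPM in E-cad LO. The sum was thus lower in E-cad LO in 3 mice and higher in mouse 70, and the groups overlapped. By edgeR log2 fold change, 10 Gst genes were below 0 and 7 above, against 6108 and 7490 of all genes.

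The Gst result differed by class. Theta genes had median log2 ratios of −1.90, −0.17, −0.72 and −0.92, and alpha genes −2.91, −0.33, −0.63 and −0.77, below 0 in 4 of 4 mice. Mu genes had −0.72, 0.24, −0.58 and 0.98, with both signs.

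Without TMM scaling, the median of all genes was 0.30 in mouse 57 and −0.08, 0.07 and −0.01 in the others, the shift against which unscaled values are read. Theta genes then had −1.60, −0.25, −0.67 and −0.9975, still below 0 in 4 mice, as were alpha genes. The median of the whole Gst family in mouse 70 changed sign, from 0.01 to −0.07. The number of members lower in 4 of 4 mice was 7 without TMM: Gstp1 and Gstz1 entered and Gstm2 dropped out. The number higher in 4 of 4 mice went from 1, Gstcd, to 0. With DESeq2 size factors 6 were lower and 1 higher in 4 of 4 mice, and the 4 members without overlap were the same genes under the 3 scalings.

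Theta class transferases act on small halogenated compounds and on peroxides. The tested theta genes, Gstt1, Gstt2 and Gstt3, lie together on chromosome 10 (GRCm38). Gstt1 (ENSMUSG00000001663, chr10:75783813-75798584) had the highest mean level per kb of exon of the members in both groups, 356 CPM per kb in E-cad HI against 179 CPM per kb in E-cad LO. In the E-cad LO library of mouse 70 it made up 15.4% of the summed Gst level per kb, under Gstm1 (32.6%) and Gstm5 (26.0%). Its levels were 652, 373, 566 and 588 CPM in E-cad HI against 104, 342, 344 and 306 CPM in E-cad LO. In E-cad LO mouse 57 was far the lowest, mouse 58 differed least, and the groups did not overlap. The edgeR log2 fold change was −0.99 (standard error 0.36, adjusted p 0.305), and without mouse 57 it was −0.64 (adjusted p 0.632). DESeq2 with the block gave −1.06 with an adjusted p of 0.0334, and over the alternatives the adjusted p was 0.0334 to 0.680.

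Gstt3 (ENSMUSG00000001665, chr10:75774115-75781414), the gene next to Gstt1, had 264, 190.2, 221 and 236.5 CPM in E-cad HI against 70.2, 149.6, 125 and 125 CPM in E-cad LO. All 4 E-cad LO libraries lay under the lowest E-cad HI library, and mouse 57 again had the lowest value. By edgeR, the log2 fold change was −0.96 (standard error 0.23, adjusted p 0.253), and −0.72 without mouse 57. By DESeq2 Gstt3 fell, with a log2 fold change of −0.94 (adjusted p 0.00908), and the adjusted p over the alternatives was 0.0062 to 0.680. Of the 65-base windows of its exons, 11.8% also occur in the readthrough gene Gm20441, and how such reads were counted is not stated.

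Gstt2 (chr10:75831845-75834881), described after its values were seen, had 46.1, 24.9, 39.8 and 45.4 CPM in E-cad HI against 23.7, 22.0, 26.6 and 30.3 CPM in E-cad LO. Each mouse had the lower value in E-cad LO, though the groups overlapped through the E-cad HI library of mouse 58. Its edgeR log2 fold change was −0.61 (standard error 0.23, adjusted p 0.318). Gstt4 had 2 to 14 counts in a library and was not tested. Summed theta levels were 962, 588, 827 and 869.8 CPM in E-cad HI against 198, 514, 496 and 462 CPM in E-cad LO.

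Alpha class transferases clear products of lipid peroxidation, and Gsta4 acts above all on hydroxyalkenals. Gsta4 (ENSMUSG00000032348, chr9:78182774-78209349) had 179.9, 148, 157.5 and 164 CPM in E-cad HI against 19.1, 115, 76.25 and 134 CPM in E-cad LO. The E-cad HI libraries lay close together and the E-cad LO libraries spread widely, without overlap. In edgeR the log2 fold change came to −0.92 (standard error 0.46, adjusted p 0.396), and −0.56 without mouse 57.

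Gsta3 (ENSMUSG00000025934, chr1:21240589-21265661), which in mouse liver detoxifies the aflatoxin epoxide, had 40.8, 19.8, 20.75 and 25.0 CPM in E-cad HI. Its E-cad LO levels were 6.22, 16.1, 17.8 and 10.3 CPM. The groups did not overlap, with a narrow gap between mouse 67 in E-cad LO and mouse 58 in E-cad HI. The edgeR log2 fold change was −1.08 (standard error 0.38, adjusted p 0.303), and −0.59 without mouse 57. Gsta1 and Gsta2 were not tested, with at most 1 and 6 counts in a library.

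**Figure D2:**
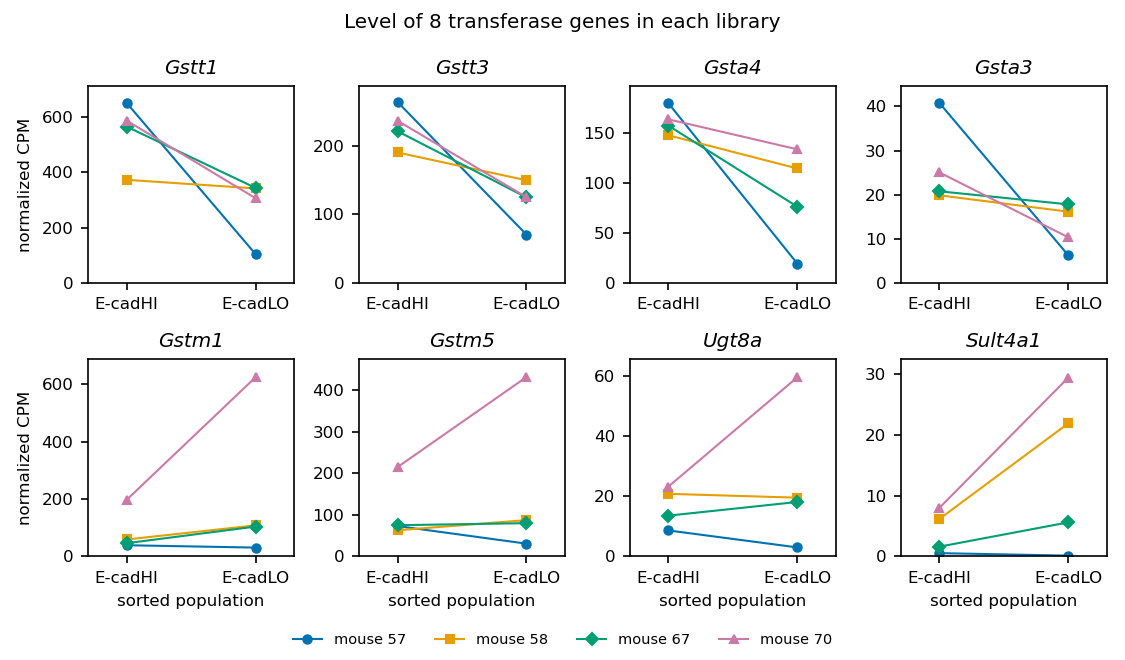
Normalized CPM (vertical axis) of Gstt1, Gstt3, Gsta4, Gsta3, Gstm1, Gstm5, Ugt8a and Sult4a1 per library, E-cad HI left and E-cad LO right, with 1 point per library and lines joining the libraries of a mouse. Gstt3 goes from 264 to 70.2 CPM in mouse 57 and from 190.2 to 149.6 CPM in mouse 58, while Gstm1 goes from 196 to 624 CPM in mouse 70.

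Mu class transferases take a broad range of electrophiles, and their genes form a cluster on chromosome 3. Gstm1 (ENSMUSG00000058135, chr3:108012255-108017973) had 37.9, 58.0, 45.0 and 196 CPM in E-cad HI against 29.6, 107, 103 and 624 CPM in E-cad LO. It was higher in E-cad LO in mice 58, 67 and 70 and lower in mouse 57, and both libraries of mouse 70 lay far above the rest. By edgeR, the log2 fold change was 1.36 (standard error 0.88, adjusted p 0.479), and 0.77 without mouse 70. DESeq2 with the block gave 0.89 (adjusted p 0.0486), and the adjusted p over the alternatives was 0.00684 to 0.725. With the block edgeR gave 0.87 (adjusted p 0.207). Leaving out mouse 57, the 1 mouse of opposite sign, made this 1.23 (edgeR adjusted p 0.00684), and leaving out another mouse gave 0.60 to 0.87 (edgeR adjusted p 0.272 to 0.4998). Gstm1 shares 14.1% of its 65-base windows with Gstm3 and the pseudogene Gstm2-ps1.

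Gstm5 (ENSMUSG00000004032, chr3:107895821-107898686), a mu gene known from brain and testis, had 72.5, 62.4, 74.55 and 215 CPM in E-cad HI against 30, 86.9, 79.5 and 432 CPM in E-cad LO. Mouse 70 was highest in both groups, mouse 57 had the lower value in E-cad LO, and the groups overlapped. In edgeR the log2 fold change came to 0.57 (standard error 0.75, adjusted p 0.719), and −0.09 without mouse 70. An antisense gene, 4933431E20Rik, covers 13.9% of its exons.

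Several further genes are described here that were chosen after their values were seen. Gstm2 had 13.1, 11.8, 10.2 and 13.2 CPM in E-cad HI against 11.3, 6.26, 3.89 and 6.34 CPM in E-cad LO, lower in each mouse with overlap through mouse 57. Its edgeR log2 fold change was −0.80 (standard error 0.36, adjusted p 0.358). Gstm7 had 4.93, 2.53, 5.26 and 11.3 CPM in E-cad HI against 3.70, 5.22, 9.33 and 36.5 CPM in E-cad LO, lower in mouse 57 and higher in the others, as for Gstm1. Gstm6 had 0.556, 1.07, 1.48 and 2.80 CPM in E-cad HI against 0, 0.116, 0 and 5.92 CPM in E-cad LO. It was near or at 0 in 3 E-cad LO libraries, and its edgeR log2 fold change was 0.05 without and −2.41 with the block. Gstm3 was not tested, with 45 counts in the E-cad LO library of mouse 70 and at most 6 in any other.

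Gsto1, an omega class thioltransferase, had 110.3, 106, 120.1 and 100.3 CPM in E-cad HI against 129.5, 93.0, 83.6 and 90.6 CPM in E-cad LO. The groups overlapped, with mouse 57 the 1 mouse higher in E-cad LO, and the edgeR log2 fold change was −0.14. Gstp1, the pi class gene, had 76.65, 77.3, 70.7 and 96.7 CPM in E-cad HI against 42.7, 70.4, 48.9 and 97.6 CPM in E-cad LO. It was lower in E-cad LO in 3 mice and about level in mouse 70, with an edgeR log2 fold change of −0.31. Gstp1 shares 30.9% of its windows with Gstp2 and Gstp-ps, so its reads are uncertain.

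Gstz1, an isomerase of tyrosine breakdown, had 66.5, 45.8, 56.5 and 63.9 CPM in E-cad HI against 32.5, 35.4, 51.2 and 67.4 CPM in E-cad LO, with overlap. Gstk1, the kappa class gene of mitochondria and peroxisomes, had 6.25, 4.90, 8.74 and 20.3 CPM in E-cad HI against 5.70, 7.31, 5.705 and 32.3 CPM in E-cad LO. Mouse 70 was highest in both groups. The edgeR log2 fold change of Gstk1 was 0.35, and −0.08 without mouse 70.

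Gstcd (ENSMUSG00000028018, chr3:132981752-133092033), which carries a transferase-like carboxy-terminal domain, had 6.88, 6.97, 6.67 and 5.78 CPM in E-cad HI against 12.45, 10.2, 9.06 and 5.78 CPM in E-cad LO. It was higher in E-cad LO in mice 57, 58 and 67 (log2 ratios 0.81, 0.52 and 0.42), and mouse 70 had nearly the same level in both libraries, so the groups overlapped. The edgeR log2 fold change was 0.51 (standard error 0.32, adjusted p 0.469).

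As shares of the summed Gst level per kb of exon, theta genes made up 57.4%, 46.8%, 54.9% and 43.2% in E-cad HI against 34.2%, 43.1%, 47.0% and 18.5% in E-cad LO. Mu genes made up 11.3%, 16.1%, 13.4% and 30.8% in E-cad HI against 20.6%, 24.7%, 25.5% and 61.9% in E-cad LO. In each mouse the theta share was lower and the mu share higher in E-cad LO, though in mouse 57 the summed mu level itself was lower there (79.4 against 139.8 CPM). Alpha shares were 17.2%, 18.9%, 16.2% and 12.8% in E-cad HI against 6.13%, 15.1%, 11.5% and 8.34% in E-cad LO, also lower in each mouse.

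**Figure D3:**
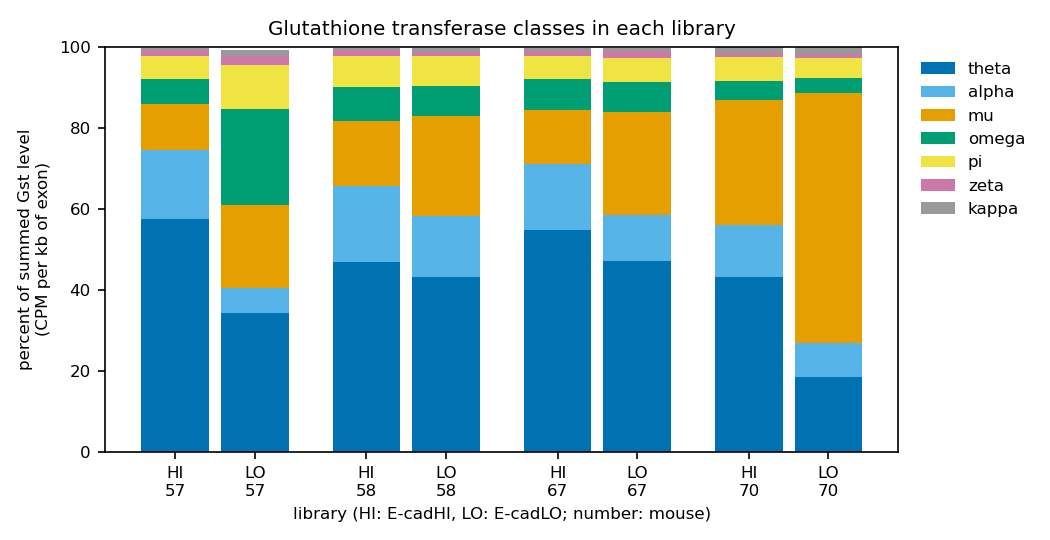
Stacked bars give the percent of the summed Gst level per kb of exon (vertical axis) that each class made up in each library, E-cad HI beside E-cad LO; Gstcd is not drawn. The theta part goes from 57.4% to 34.2% in mouse 57 and from 43.2% to 18.5% in mouse 70.

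Among the Ugt genes 1 was tested, Ugt8a (ENSMUSG00000032854, chr3:125865271-125938619). Despite its name it adds galactose to ceramide, the step that makes the galactolipids of myelin. Its levels were 8.55, 20.8, 13.5 and 23.2 CPM in E-cad HI against 2.89, 19.5, 18.05 and 59.65 CPM in E-cad LO. Within mice the log2 ratios were −1.42, −0.09, 0.41 and 1.34, of both signs, and the groups overlapped. By edgeR, the log2 fold change was 0.60 (standard error 0.71, adjusted p 0.684), −0.08 without mouse 70 and 0.09 with the block.

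The 19 other Ugt genes, which hold the glucuronidating enzymes, had too few counts to be tested. Ugt1a7c had 0, 4, 4 and 1 counts in E-cad HI against 0, 5, 22 and 6 counts in E-cad LO. Ugt1a6a had 0, 4, 0 and 1 counts in E-cad HI and 4 in mouse 70 alone in E-cad LO. Ugt2a2, an olfactory enzyme, had 0, 5, 1 and 0 counts in E-cad HI and 0 in each E-cad LO library. These counts lay at or near the floor in most libraries, and no fold change is given. The 9 Ugt1a genes join their own first exon to shared exons at the 3′ end, so reads cannot be assigned to 1 of them with certainty. Summed over the 9, the level was 0, 0.843, 0.445 and 0.438 CPM in E-cad HI against 0, 0.580, 1.61 and 0.767 CPM in E-cad LO. Ugt2a3 and Ugt2b37 had 0 counts in each library, and 14 more Ugt genes never exceeded 3 counts.

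The 4 tested Sult genes had a median log2 ratio of −0.69, 0.85, 0.76 and 0.36, below 0 in mouse 57 and above 0 in the others. Summed over the 20 Sult genes, the level was 8.34, 14.2, 7.86 and 20.1 CPM in E-cad HI against 10.5, 32.9, 14.9 and 41.8 CPM in E-cad LO. The sum was higher in E-cad LO in 4 of 4 mice (log2 ratios 0.32, 1.19, 0.88 and 1.04), and the groups overlapped.

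Sult4a1 (ENSMUSG00000018865, chr15:84076097-84105754), a brain sulfotransferase-like protein without an established substrate, had 0.486, 6.13, 1.56 and 7.97 CPM in E-cad HI. In E-cad LO it had 0.0741, 21.9, 5.57 and 29.5 CPM. Mouse 57 was lowest in both groups, under the floor in E-cad LO, and mice 58, 67 and 70 were each higher in E-cad LO. In edgeR the log2 fold change came to 1.82 (standard error 1.23, adjusted p 0.492). With the block edgeR gave 1.37 (adjusted p 0.261). Leaving out mouse 57, the 1 mouse of opposite sign, made this 1.83 (edgeR adjusted p 0.00993), while leaving out another mouse gave 1.03 to 1.16 (edgeR adjusted p 0.478 to 0.566).

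Sult2b1 (ENSMUSG00000003271, chr7:45729983-45784669), which makes cholesterol sulfate, had 2.29, 2.07, 2.59 and 5.43 CPM in E-cad HI against 5.85, 6.15, 6.98 and 2.86 CPM in E-cad LO. It was higher in E-cad LO in mice 57, 58 and 67 and lower in mouse 70 (log2 ratio −0.82), and the groups overlapped. The edgeR log2 fold change was 0.82 (standard error 0.48, adjusted p 0.445), and without mouse 70 it was 1.46 (adjusted p 0.304).

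Sult1d1 (ENSMUSG00000029273, chr5:87554645-87569027), which sulfates catecholamines, had 4.10, 2.68, 1.78 and 1.84 CPM in E-cad HI against 2.52, 3.48, 2.215 and 1.95 CPM in E-cad LO. The ranges overlapped almost wholly, and the edgeR log2 fold change was −0.04 without and 0.02 with the block. Sult1a1 (ENSMUSG00000030711, chr7:126672865-126676432), a phenol sulfotransferase, had 1.25, 1.15, 1.19 and 3.94 CPM in E-cad HI against 0.0741, 1.04, 0 and 6.48 CPM in E-cad LO. It was under the floor in E-cad LO of mice 57 and 67 and highest in mouse 70. Its edgeR log2 fold change was 0.02, −1.47 with the block and −1.77 without mouse 70. Of the 16 untested Sult genes, Sult2a5 and Sult2a7 had 0 counts in each library and 8 never exceeded 3 counts.

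In bulk libraries, fewer cells of a type and less RNA of a gene per cell cannot be told apart, so marker lists of several cell types of the tissue are given as levels. Tumor epithelium markers (7 of 7 tested; Krt18 most abundant) summed to 9269, 6975, 9527 and 8508 CPM in E-cad HI against 5103, 8411, 13330 and 7472 CPM in E-cad LO. Of these 7, Epcam and Elf5 were lower in E-cad LO in 4 of 4 mice, with Epcam log2 ratios of −2.21, −0.04, −0.64 and −0.73. The other 5 had both signs: Krt8 and Krt18 were higher in E-cad LO in mice 58 and 67, and Krt19, Cdh1 and Cldn7 in mouse 58. Cdh1, which encodes the E-cadherin of the sort, had 114, 132, 93.2 and 107 CPM in E-cad HI against 71.4, 181, 84.2 and 59.0 CPM in E-cad LO, so in mouse 58 its RNA was higher in the cells sorted as E-cad LO. The part of tumor cell content in the theta and alpha levels was not tested.

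Oligodendrocyte markers (8 of 8 tested; Mbp most abundant) summed to 553, 1635, 960.0 and 8593 CPM in E-cad HI against 1317, 3778, 4309 and 34480 CPM in E-cad LO. Of the 8, 5 were higher in E-cad LO in 4 of 4 mice, and edgeR with the block called 2, Mbp and Mobp, against 0 without it. Mouse 70 was highest for this list, and for Ugt8a, in both groups. Astrocyte markers (8 of 8 tested; Aldoc most abundant) summed to 1142, 1154, 1306 and 3472 CPM in E-cad HI against 722, 1478, 1966 and 9947 CPM in E-cad LO. In mouse 57 Aldoc (1002 against 123 CPM) dropped by more than the sum did, so the other astrocyte markers together were higher in E-cad LO. Over the list the median ratio (log2) lay above 0 in that mouse (1.97), where Gstm1 was below 0. Of the 8, 5 were higher in 4 of 4 mice, and edgeR with the block called 3. Neuron markers (8 of 8 tested; Snap25 most abundant) summed to 3.75, 55.5, 19.9 and 91.1 CPM in E-cad HI against 23.9, 132, 129 and 368 CPM in E-cad LO. Of these, 4 were higher in 4 of 4 mice and edgeR with the block called 1, Snap25. The part of these cell types in the mu, Ugt8a and Sult4a1 levels was not tested. The paper describes the sequenced cells as sorted tumor cells and reports that imaging of the reporter showed both populations to be isolated. Its purity check by sorting was made on the CFP positive population only.

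Of the microglia markers, Cx3cr1 had 0.625, 3.601, 3.11 and 4.03 CPM in E-cad HI against 3.85, 15.5, 22.8 and 30.2 CPM in E-cad LO. It was higher in E-cad LO in 4 of 4 mice, as was P2ry12, and edgeR with the block called both (adjusted p 0.0239 and 0.0490), against 0.262 and 0.2825 without it; no sum is given for this cell type. Mural cell and fibroblast markers (6 of 8 tested; Col1a1 most abundant) summed to 8.41, 12.6, 8.003 and 58.3 CPM in E-cad HI against 1187, 17.1, 54.3 and 178 CPM in E-cad LO. Endothelial markers (6 of 7 tested; Flt1 most abundant) summed to 42.0, 41.8, 76.5 and 67.85 CPM in E-cad HI against 48.0, 77.35, 92.0 and 101.5 CPM in E-cad LO. Choroid plexus and ependyma markers (4 of 6 tested; Folr1 most abundant) summed to 483, 242, 388 and 644 CPM in E-cad HI against 75.0, 225, 240.0 and 1148 CPM in E-cad LO. Within this list Folr1 was lower and Ttr and Foxj1 were higher in E-cad LO in 4 of 4 mice, and edgeR called Ttr with the block (adjusted p 0.0239) and not without it (adjusted p 0.661).

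Liver, the organ richest in these enzymes, left little trace. Hepatocyte markers (1 of 8 tested) summed to 0.834, 3.22, 2.96 and 259 CPM in E-cad HI against 6.89, 7.77, 26.4 and 930.3 CPM in E-cad LO. Most of each sum was Ttr, which choroid plexus also makes, except in E-cad HI of mouse 58 (Ttr 0.6895 CPM, Hnf4a 1.379 CPM). Alb had 1 count in E-cad HI of mouse 58, 5 counts in E-cad LO of mouse 58 and 0 in the other libraries. Neutrophil markers (1 of 5 tested; S100a8 most abundant) summed to 8.47 to 24.1 CPM and lymphocyte markers (0 of 5 tested; Nkg7 most abundant) to 0 to 8.36 CPM over the libraries. No marker of these lists was at 0 in each of the 8 libraries.

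Of the membrane-bound glutathione transferases and relatives, 5 of 6 were tested, and edgeR called 0 in either direction after adjustment and 1 lower before it. Mgst1, the most abundant, had 1988, 1427, 1921 and 1968 CPM in E-cad HI against 260, 1181, 1026 and 1089 CPM in E-cad LO. The groups did not overlap, with mouse 57 lowest and mouse 58 differing least, as for Gstt1. Its edgeR log2 fold change was −1.04 (standard error 0.41, adjusted p 0.321). Mgst1 and Alox5ap were lower in E-cad LO in 4 of 4 mice.

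The supply of glutathione did not share a direction. Of 20 genes of glutathione synthesis and recycling, 18 were tested, and edgeR called 0 after adjustment, with 3 higher and 1 lower before it. Within mice 5 were higher in 4 of 4 (Ggt7, Chac1, Slc7a11, Slc3a2 and Hpgds) and 6 lower (Gss, Ggt1, Ggct, Gpx1, Gpx3 and Glrx). Slc3a2, a subunit of the cystine transporter and the most abundant of the list, had 694, 439, 511 and 472 CPM in E-cad HI against 1013, 572, 748 and 662 CPM in E-cad LO. It was higher in E-cad LO in each mouse though the groups overlapped, and the edgeR log2 fold change was 0.50 (standard error 0.23, adjusted p 0.366).

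Many Gst genes are targets of the transcription factor Nrf2, so its other targets were read beside them. Of 19 such genes, 18 were tested, and edgeR called 0 after adjustment, with 2 higher and 5 lower before it; the median log2 fold change was −0.30. Hmox1, which breaks down heme, had 15.4, 10.9, 13.9 and 19.5 CPM in E-cad HI against 44.7, 33.5, 28.9 and 48.8 CPM in E-cad LO. It was higher in E-cad LO in each mouse without overlap. Its edgeR log2 fold change was 1.39 (standard error 0.26, adjusted p 0.204), and with the block Hmox1 rose by 1.39 (edgeR adjusted p 0.0330). Osgin1 was also higher in 4 of 4 mice, while Pgd, Taldo1, Tkt, Ephx1 and Akr1b8 were lower in 4 of 4 mice.

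Regulator genes gave 13 tested of 17, with 0 called by edgeR after adjustment and 4 higher and 1 lower before it. Nfe2l1, Mafk and Arnt were higher in E-cad LO in 4 of 4 mice, and Rxra was lower. Nfe2l2, which encodes Nrf2, was the most abundant, with an edgeR log2 fold change of 0.20 (adjusted p 0.631).

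The donors of the other families were read in the same way. Of 6 genes of UDP-glucuronate supply, 6 were tested, with 0 called by edgeR after adjustment, 0 before it, and −0.12 as the median log2 fold change. Of 12 genes of PAPS supply and sulfate, 10 were tested and Sts was not in the table; edgeR called 0 after adjustment, with 1 higher and 4 lower before it. Slc35b2, the PAPS carrier of the Golgi, had 336, 271.5, 311.5 and 320.1 CPM in E-cad HI against 165, 192, 216 and 197 CPM in E-cad LO, without overlap. Its edgeR log2 fold change was −0.69 (standard error 0.15, adjusted p 0.247), while the summed Sult level lay in the other direction. Of 15 conjugate transporters, 10 were tested, with 0 called by edgeR after adjustment and 0 before it; 9 had log2 fold changes above 0.

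The antioxidant response motif TGACNNNGC was searched on both strands of promoters (250 bases before to 50 after a gene's start; RefSeq, GRCm38.p6), with 55 members matched. It occurred in 3 of the 55 members (5.45%), or 3 of 19 tested ones (15.8%), against 3781 of 27025 genes (14.0%) and 4071 of 32851 promoters (12.4%). A match describes the sequence and is not a binding site or a cause. The 3 promoters with a match, Gsta3 (chr1:21240335-21240634, + strand), Gstm5 (chr3:107895604-107895903, + strand) and Gstm7 (chr3:107931565-107931864, − strand), are shown with the motif in capitals. They lie in genes whose levels went in different directions. The promoters of Gstt1 (chr10:75797682-75797981, − strand) and Gstt3 (chr10:75781365-75781664, − strand) are shown because these genes had the smallest DESeq2 adjusted p of the members, and neither has a match. Gsta4, Gstt2 and Sult4a1 were not in the promoter table.
Gsta3: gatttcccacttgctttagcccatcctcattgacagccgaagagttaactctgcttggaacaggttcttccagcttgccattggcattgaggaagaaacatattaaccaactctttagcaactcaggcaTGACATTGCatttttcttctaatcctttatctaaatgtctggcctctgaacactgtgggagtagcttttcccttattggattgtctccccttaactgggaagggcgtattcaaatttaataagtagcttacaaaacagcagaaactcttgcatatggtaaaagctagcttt
Gstm5: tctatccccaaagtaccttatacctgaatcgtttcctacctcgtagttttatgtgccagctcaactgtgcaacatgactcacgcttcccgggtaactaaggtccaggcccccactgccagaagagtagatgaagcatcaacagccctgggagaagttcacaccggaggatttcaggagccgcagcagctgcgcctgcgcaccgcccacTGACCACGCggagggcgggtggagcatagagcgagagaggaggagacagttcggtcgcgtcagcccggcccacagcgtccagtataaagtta
Gstm7: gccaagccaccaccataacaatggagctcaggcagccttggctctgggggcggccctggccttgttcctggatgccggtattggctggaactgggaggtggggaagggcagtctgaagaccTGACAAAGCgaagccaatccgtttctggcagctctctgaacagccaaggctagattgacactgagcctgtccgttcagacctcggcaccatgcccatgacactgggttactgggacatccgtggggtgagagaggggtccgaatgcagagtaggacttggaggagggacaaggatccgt
Gstt1: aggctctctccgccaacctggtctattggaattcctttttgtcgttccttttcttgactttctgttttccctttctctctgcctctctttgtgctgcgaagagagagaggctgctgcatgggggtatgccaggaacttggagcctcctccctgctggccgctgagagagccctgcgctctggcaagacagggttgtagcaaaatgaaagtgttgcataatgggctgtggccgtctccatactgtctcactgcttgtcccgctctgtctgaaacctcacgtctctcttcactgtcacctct
Gstt3: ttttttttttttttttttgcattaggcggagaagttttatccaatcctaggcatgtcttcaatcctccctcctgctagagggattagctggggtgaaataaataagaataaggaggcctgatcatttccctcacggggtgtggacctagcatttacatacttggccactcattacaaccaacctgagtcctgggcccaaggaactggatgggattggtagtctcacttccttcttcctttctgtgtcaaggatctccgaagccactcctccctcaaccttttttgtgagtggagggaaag

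The members lower in E-cad LO in 4 of 4 mice thus held 3 theta genes, 2 alpha genes and Gstm2, with 0 of them called by edgeR, Gstt3 called by DESeq2, and Gstt1 and Gstt3 called by DESeq2 with the block. The medians of the mu and Sult genes, and Ugt8a, had within-mouse ratios of both signs, with mouse 57 and mouse 70 at the ends for Gstm1, Ugt8a and Gstm7.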

How the data were processed

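The authors sequenced mRNA of cells sorted as E-cad HI or E-cad LO from brain metastases of 4 mice (8 libraries, 65-base single reads), aligned it to GRCm38 with HISAT2 2.1.0 and deposited raw read counts per gene. The counting tool is named differently in the deposited notes and the methods, and strand and multi-mapping settings are not stated. Of 32259 table entries, 365 without an identifier (0.0636 to 0.0954% of counts) were left out. Members and lists were chosen with earlier results of these data known. Genes were named by a fixed rule: the 4 most abundant of each family, the genes in 1 direction in 4 of 4 mice with the most extreme blocked fold changes, Ugt8a and Sult4a1, and at most 3 of each pathway list; others are marked in the text. The test was edgeR 4.0.16 (quasi-likelihood, TMM, filterByExpr by group, Benjamini-Hochberg over 13598 genes), in R 4.3.3. Alternatives were DESeq2 1.42.0, the mouse as a replicate block, other filters and scalings, a robust fit and leaving out each mouse. Standard errors and p-values of the fits without the block measure the spread between mice within a group and leave the pairing unused. Those of the fits with the block measure the spread of the within-mouse differences. Library names carry the mouse numbers; as a check, same-mouse libraries correlated at 0.248 to 0.692 and others at most 0.144. Levels per kb used GENCODE M21 exon lengths, and shared 65-base windows were counted between transcripts. The floor was 3 counts. Marker sums are reported for 10 cell types, and pathway lists covered 7 steps of conjugation. The edgeR and DESeq2 fits were run on simulated counts with known changes, with pass limits set for edgeR only. The other steps were not tested in this way.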

Additional observations from a re-analysis of the deposited data

Results flagged for a closer look

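In 12 of 72 groups of 4 values, 1 sample lay far from the other 3. About 1 in 20 groups, or 3.6 of 72, would be marked by chance alone. The causes were not tested.

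Mouse 70 gave 10 of the 12. It was the high sample in both groups for Gstm1 (E-cad HI 196 CPM, E-cad LO 624 CPM), Gstm5 (215 and 432 CPM) and Sult1a1 (3.94 and 6.48 CPM). It was the high sample in E-cad LO for Gstk1 (32.3 CPM) and Gstm6 (5.92 CPM), and in E-cad HI for Sult2b1 (5.43 CPM). Its Sult2b1 log2 ratio, −0.82, was the 1 value below 0 among the 4 mice.

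Mouse 57 gave the rest. Gstt1 in its E-cad LO library, 104 CPM, was far under the other 3, and its Sult4a1 log2 ratio, −0.78, lay below 0 while the other mice lay above.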

How the results depend on the processing

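The count of members called higher, 0 in edgeR, was 1 in DESeq2 with the replicate block (Gstm1) and 0 to 2 when a mouse was left out of the edgeR fit with the replicate block (2 without mouse 57, Sult4a1 and Gstm1). The count called lower, 0 in edgeR, was 1 in DESeq2 (Gstt3) and 2 in DESeq2 with the replicate block (Gstt1 and Gstt3). The other 26 counts were the same. The cause was not tested.

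Of the log2 fold changes of members, 291 alternatives kept sign and call, 25 reversed sign and 6 became called. With the replicate block Gstm6 went from 0.05 to −2.41, Sult1a1 from 0.02 to −1.47 and Sult1d1 from −0.04 to 0.0157; with DESeq2 and the block they were −3.44, −1.85 and 0.0369. Without a filter Gstm6 was −0.0262 and Sult1a1 −0.0414, and with at least 10 counts in every library Sult1d1 was 0.0146. Leaving out 1 mouse at a time gave ranges that crossed 0 for Gstk1 (−0.081 to 0.51), Gstm5 (−0.0900 to 0.73), Gsto1 (−0.31 to 0.00689), Gsto2 (−0.0902 to 0.72; without mouse 70 it had no value), Sult1a1 (−1.77 to 0.23), Sult1d1 (−0.195 to 0.25) and Ugt8a (−0.0824 to 0.84). In the paired fit the ranges were −0.0518 to 0.39 for Gstk1, −0.21 to 0.51 for Gstm5, −0.29 to 0.59 for Gsto2 (again with no value without mouse 70), −0.0914 to 0.24 for Sult1d1 and −0.36 to 0.55 for Ugt8a. The cause was not tested.

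The 27 alternatives for the family medians moved each by less than the standard deviation between mice: −0.53 to −0.17 for Gst, −0.09 to 0.41 for Ugt (below 0 without mouse 67 or mouse 70) and 0.00 to 0.76 for Sult (0.00 without a filter, when untested genes enter).

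Low counts limit the Ugt and Sult results, and absent expression and shallow depth cannot be told apart there. Of 63 members, 41 were not tested, 35 of them Ugt or Sult genes, and 4 had 0 counts in each library. With 4 mice per group, edgeR called 0 of 13598 genes after adjustment, of any size of difference, and 99 with the replicate block. Whether the number of mice set the result for Gstt1 was not tested. Reads of genes with shared exons or close copies are uncertain, since the counting settings are not stated.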
